A study of Rattus norvegicus with 16 samples.

Results

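Amygdala from high responder rats was compared with amygdala from low responder rats by small RNA sequencing, and the comparison uses 8 of the 16 libraries of the series. The 4 libraries labelled high responder amygdala and the 4 labelled low responder amygdala were taken by their line and tissue labels. Tissue came from rats 60 days old, and no treatment, sex or dissection detail is given in the sources used here. The labels call high and low responder a rat strain; these lines are known for selection on locomotor response to a new place. The other 8 libraries, 4 of each line, are from dorsal raphe and enter the same model, where they help to estimate the spread. Of these, low responder replicate 4 deviated most from its group mean among all 16 libraries (root mean square 1.03 log2 units).

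The amygdala is a group of forebrain nuclei for fear, anxiety and the learning of emotional value. A microRNA (miRNA) is a short RNA that guides Argonaute proteins to messenger RNAs and lowers their translation and stability. It is cut from a hairpin precursor whose arms give a 5p and a 3p product, of which usually the one with the less stable 5′ end is kept in Argonaute. Bases 2 to 8 of the mature miRNA, the seed, do most of the target pairing, so miRNAs with the same seed are counted as a family.

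Of the 722 miRNAs listed, 639 were tested. The sequences of the miRNAs on which the results below turn are given first, from RefSeq (build GRCr8), with the seed in capitals. The following pair carries the arm ratio of lowest p, shifted toward the 3p arm in high responders.
miR-370-5p: cAGGUCACgucucugcaguuacac
miR-370-3p: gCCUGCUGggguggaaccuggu
The next set holds miR-148b-3p, which was lower in high responders, and miR-152-3p, which shares its seed.
miR-148b-3p: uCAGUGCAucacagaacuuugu
miR-152-3p: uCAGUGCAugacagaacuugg
A near-identical pair with the same seed is shown with the other arm of miR-204, since all were higher in mean in high responders.
miR-204-5p: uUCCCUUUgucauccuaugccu
miR-211-5p: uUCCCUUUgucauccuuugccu
miR-204-3p: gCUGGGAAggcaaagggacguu
Both arms of miR-22 were also higher in mean.
miR-22-5p: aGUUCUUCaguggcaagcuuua
miR-22-3p: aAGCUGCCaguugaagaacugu
Lower in mean in high responders were also miR-194-5p, miR-532-3p, miR-484, miR-190a-5p and miR-146a-5p.
miR-194-5p: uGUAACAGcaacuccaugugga
miR-532-3p: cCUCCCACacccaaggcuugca
miR-484: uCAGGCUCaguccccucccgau
miR-190a-5p: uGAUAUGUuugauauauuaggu
miR-146a-5p: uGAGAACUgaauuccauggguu
For miR-99a-5p, miR-455-5p and miR-347 no sequence is printed.

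The amygdala libraries held 1741167 to 8134915 counts, at which 3 counts correspond to 0.369 to 1.72 CPM (counts per 1000000 counts of the library). Totals of 1741167 and 2561377 in high responder replicates 1 and 2 were the lowest, and the totals of the 2 lines overlapped (exact two-sided permutation test, p = 0.343, smallest possible 0.0286). On log2 CPM, the first principal component (64.3% of the variance) did not separate the lines. High responder replicates 1 and 2 lay at its low end (-27.1 and -15.7), and high responder replicate 4 and low responder replicate 4 at its high end (17.1 and 14.8). The second component, with 15.4%, placed all high responder libraries (0.37 to 10.05) above all low responder libraries (-13.2 to -1.50). Root-mean-square deviation from the group mean was 0.968 log2 units in high responder replicate 1 and 0.880 in replicate 4, against a lowest value of 0.306 in low responder replicate 3. For some miRNAs and arm ratios, results are therefore also given without high responder replicates 1 and 2. Where no such value is printed, how far the result rests on these libraries is not shown. Whether each sample is a rat of its own is not in the labels. The p-values cover only the spread among libraries of the same group, pooled over all 16 libraries in the main fits. That spread may be technical.

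**Figure D1:**
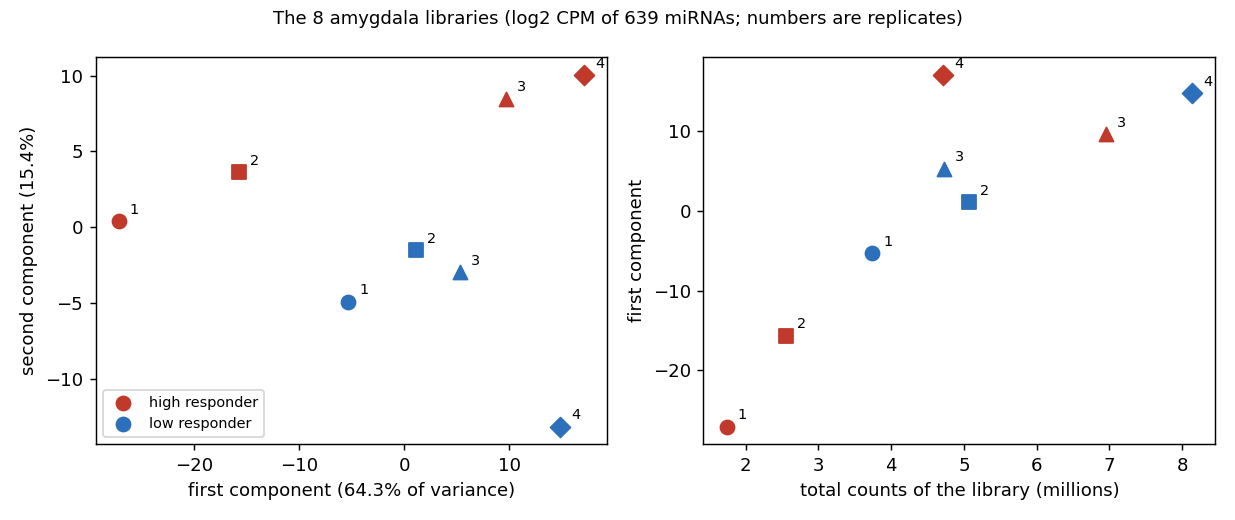
Principal components of log2 CPM over 639 miRNAs in the 8 amygdala libraries (left: second against first component; right: first component against total counts of the library; red high responder, blue low responder; numbers are replicates). High responder replicates 1 and 2, with the lowest totals, lie at -27.1 and -15.7 on the first component, which does not separate the lines.

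No miRNA differed between the lines in edgeR's quasi-likelihood test at a Benjamini-Hochberg adjusted p under 0.05, 0% of 639, although 65 (10.2%) had an unadjusted p under 0.05, 37 of them higher (5.79%) and 28 lower (4.38%) in high responders. The count depended on the tool. DESeq2 called 19 (2.97%), 14 higher (2.19%) and 5 lower (0.782%), limma-voom called 0 (80 at an unadjusted p under 0.05), and limma-voom with library quality weights called 13 (2.03%), 11 higher and 2 lower. All 19 DESeq2 calls were among the 24 miRNAs of lowest edgeR p with a mean of at least 10 CPM, and 8 of them were also called with quality weights: miR-370-3p, miR-99a-5p, miR-148b-3p, miR-211-5p, miR-455-5p, miR-22-5p, miR-22-3p and miR-28-5p. With replicate number as a block in the amygdala libraries, 0 miRNAs passed and 130 of 612 (21.2%) had an unadjusted p under 0.05, 54 higher and 76 lower. Scaled by library totals alone, the miRNAs at an unadjusted p under 0.05 split into 31 higher and 49 lower.

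For 56 miRNAs (8.76%) every library of one line lay above every library of the other, 32 higher and 24 lower in high responders. Over all 639 the median log2 fold change of high over low responders was 0.07, and 40 (6.26%) differed by more than 2-fold in mean. Among the 24 miRNAs of lowest p, 15 were higher and 9 lower, and 19 had no overlap between the lines. Since these 24 were picked by their p, that count is a description. All 24 kept their direction when each amygdala library was left out in turn and under every other alternative. That too is a description, since the 24 were picked by low p in the same libraries.

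**Figure D2:**
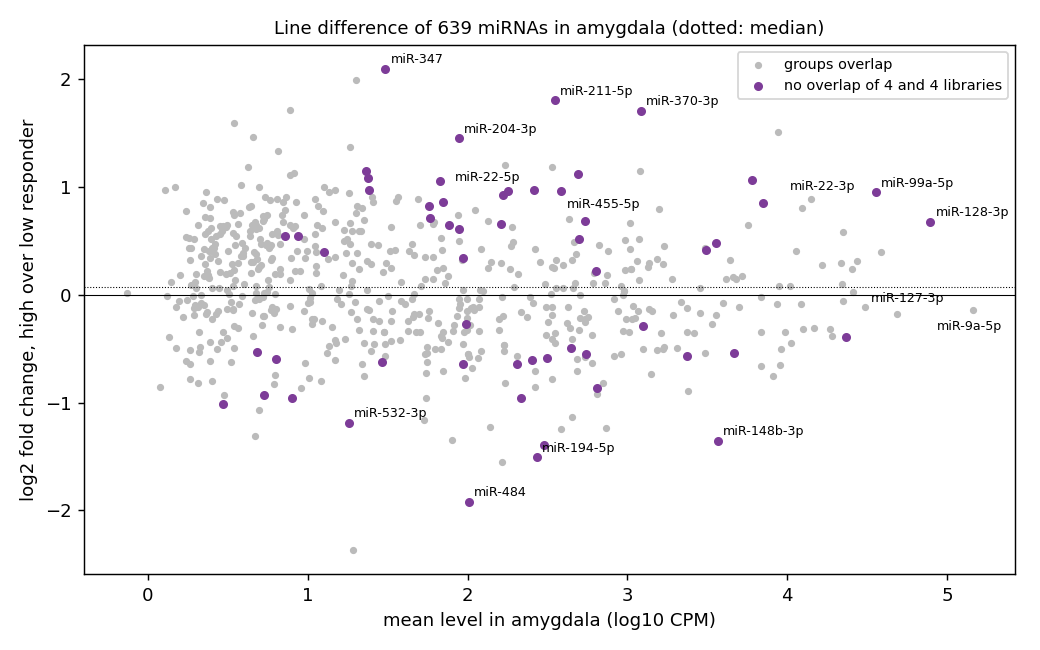
Log2 fold change of high over low responder amygdala against mean level (log10 CPM) for 639 miRNAs; purple points are the 56 whose 4 and 4 libraries do not overlap, and the dotted line is the median of 0.07. Named are the 12 of lowest p and 3 abundant miRNAs.

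miR-370-3p, of the imprinted Dlk1-Dio3 cluster (a large group of miRNAs made from the maternal chromosome and strongly expressed in brain), had the lowest p. Its level in low responder replicates 1 to 4 was 726, 537, 566 and 445 CPM and in high responder replicates 1 to 4 3092, 1762, 1345 and 1219 CPM. Every high responder library exceeded every low responder library, and replicate 1 was highest in each line. The means were 1854 ± 857 and 569 ± 117 CPM (SD, n = 4 each), a log2 fold change of 1.71 (SE 0.38; adjusted p = 0.126 in edgeR and 7.2e-04 in DESeq2). Without high responder replicates 1 and 2 it was 1.19 (edgeR adjusted p = 0.187).

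miR-99a-5p, a member of the miR-99/100 family known to target the growth kinase mTOR, was the most abundant of the 24. Low responders had 21168, 25476, 25485 and 25741 CPM and high responders 50623, 55703, 46630.3 and 36092 CPM. The lines did not overlap: low responder replicates 2 to 4 lay within a narrow range, and high responder replicate 4 was the lowest of its line. The log2 fold change was 0.95 (SE 0.22; edgeR adjusted p = 0.126, DESeq2 3.0e-04). Its near relatives miR-99b-5p and miR-100-5p had larger standard errors. miR-99b-5p was at 4031, 3983, 3323 and 4255 CPM in low and 15965, 6877, 5325 and 4516 CPM in high responders, without overlap (log2 fold change 1.07, SE 0.60, edgeR adjusted p = 0.598). Without high responder replicates 1 and 2, which held its highest levels, the log2 fold change was 0.35. miR-100-5p overlapped between the lines (log2 fold change 0.81, SE 0.55). Reads of miR-99a-5p and miR-100-5p may have been split between the 2, as their sequences are close.

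miR-148b-3p, of the miR-148/152 family known to target the DNA methyltransferase Dnmt1, had the lowest p of those lower in high responders. It stood at 6836, 3744, 6218 and 4285 CPM in low responders and 1195, 1565, 2578 and 2916 CPM in high responders. No high responder library reached the lowest low responder value, and replicates 1 and 2 were the lowest in the high line. Means were 2064 ± 815 CPM in high and 5271 ± 1489 CPM in low responders (n = 4 each, SD), with a log2 fold change of -1.35 (SE 0.33, edgeR adjusted p = 0.14, DESeq2 0.00175). The 5p product of the same hairpin went the other way: miR-148b-5p was at 48.8, 63.4, 64.6 and 60.5 CPM in low and 97.4, 94.6, 89.6 and 90.6 CPM in high responders. Its lines did not overlap either, and its high responder libraries were close together (log2 fold change 0.65, SE 0.22, edgeR adjusted p = 0.305). The hairpin lies within the span of Copz1, a gene for a coatomer subunit. miR-152-3p, with the same seed, overlapped between the lines (log2 fold change -0.12, SE 0.33).

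miR-211-5p and miR-204-5p share a seed and differ little in sequence, and they lie within the genes of the ion channels Trpm1 and Trpm3. Both are known from pigment epithelium, and miR-204 also from choroid plexus, the tissue that makes cerebrospinal fluid. miR-211-5p was at 77.3, 268, 236 and 43.3 CPM in low and 325, 616, 597 and 641 CPM in high responders (log2 fold change 1.80, SE 0.47, edgeR adjusted p = 0.183, DESeq2 0.00332). There was no overlap, but low responder replicates 1 and 4 were well below replicates 2 and 3, and high responder replicate 1 was below the others of its line. miR-204-5p showed the same order of low responder libraries, with 2312, 8887, 5951 and 942 CPM against 7832, 13999.7, 13429 and 16331 CPM in high responders. Here high responder replicate 1 fell below low responder replicate 2 (log2 fold change 1.51, SE 0.49, edgeR adjusted p = 0.288). The other arm, miR-204-3p, had 39.7, 72.6, 63.3 and 13.3 CPM in low and 109, 129.7, 142 and 135 CPM in high responders, without overlap (log2 fold change 1.45, SE 0.40, edgeR adjusted p = 0.211).

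The choroid plexus and ciliated cell list holds miR-204 and miR-211 themselves, with miR-34b, miR-34c and miR-449 products. Its summed level (11 of 12 tested members above 0, median log2 fold change 0.76) was 6166, 20813, 12090.3 and 1342 CPM in low and 12257, 24839, 23815 and 29011 CPM in high responders. Without the miR-204 and miR-211 products, 8 of 8 members were above 0 (median 0.71), and their sum was 3733, 11583, 5838 and 343 CPM in low and 3987, 10090.5, 9646 and 11903 CPM in high responders, with overlap. The sum of miRNAs hosted by the serotonin 2C receptor gene, a gene strongly expressed in choroid plexus, was 9112, 40059, 24373 and 1165 CPM in low and 25435, 35702, 26089 and 24064 CPM in high responders. Low responder replicates 4 and 1 were lowest in the low line in all 3 sums. Of the last, miR-1298 was the most abundant named miRNA, with 8730.1, 38571, 23602 and 1092 CPM in low responders and 25009, 34624, 25074 and 23003 CPM in high responders. It overlapped widely between the lines (log2 fold change 0.58, SE 0.67). Without low responder replicate 4 the log2 fold change was 1.55 for miR-211-5p and 1.23 for miR-204-5p, and the list median was 0.44; without low responder replicate 2 that median was 1.51. How much choroid plexus each sample held was not tested; fewer cells of a type and less RNA per cell cannot be told apart in bulk tissue.

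miR-455-5p, made from an intron of the collagen gene Col27a1 and known from cartilage, had 261, 306, 285 and 194 CPM in low and 443, 525, 489 and 572 CPM in high responders. The lines did not overlap and each had a small spread (log2 fold change 0.96, SE 0.25, edgeR adjusted p = 0.183, DESeq2 3.0e-04). Without high responder replicates 1 and 2 the value was 1.04. Its other arm, miR-455-3p, overlapped between the lines (log2 fold change -0.09, SE 0.54).

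Both products of miR-22, a conserved miRNA of brain and heart, were higher in mean in high responders. miR-22-3p, the main product, was at 8127, 9849.6, 10659 and 10968 CPM in low and 10553, 14773, 23294 and 24739 CPM in high responders. High responder replicate 1 fell within the low responder range and replicates 3 and 4 were highest (log2 fold change 0.89, SE 0.28, edgeR adjusted p = 0.288, DESeq2 0.0166). miR-22-5p was at 92.8, 137, 134 and 121 CPM in low and 147, 215, 298 and 280.0 CPM in high responders, without overlap (log2 fold change 0.96, SE 0.28, edgeR adjusted p = 0.274). Unlike miR-370-3p, these values were larger without high responder replicates 1 and 2, at 1.29 for miR-22-3p and 1.26 for miR-22-5p. miR-28-5p, from the gene Lpp, was higher in all high responder libraries (63.3, 54.0, 99.5 and 74.1 CPM against 28.2, 48.7, 39.9 and 48.1 CPM; log2 fold change 0.82, SE 0.27).

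**Figure D3:**
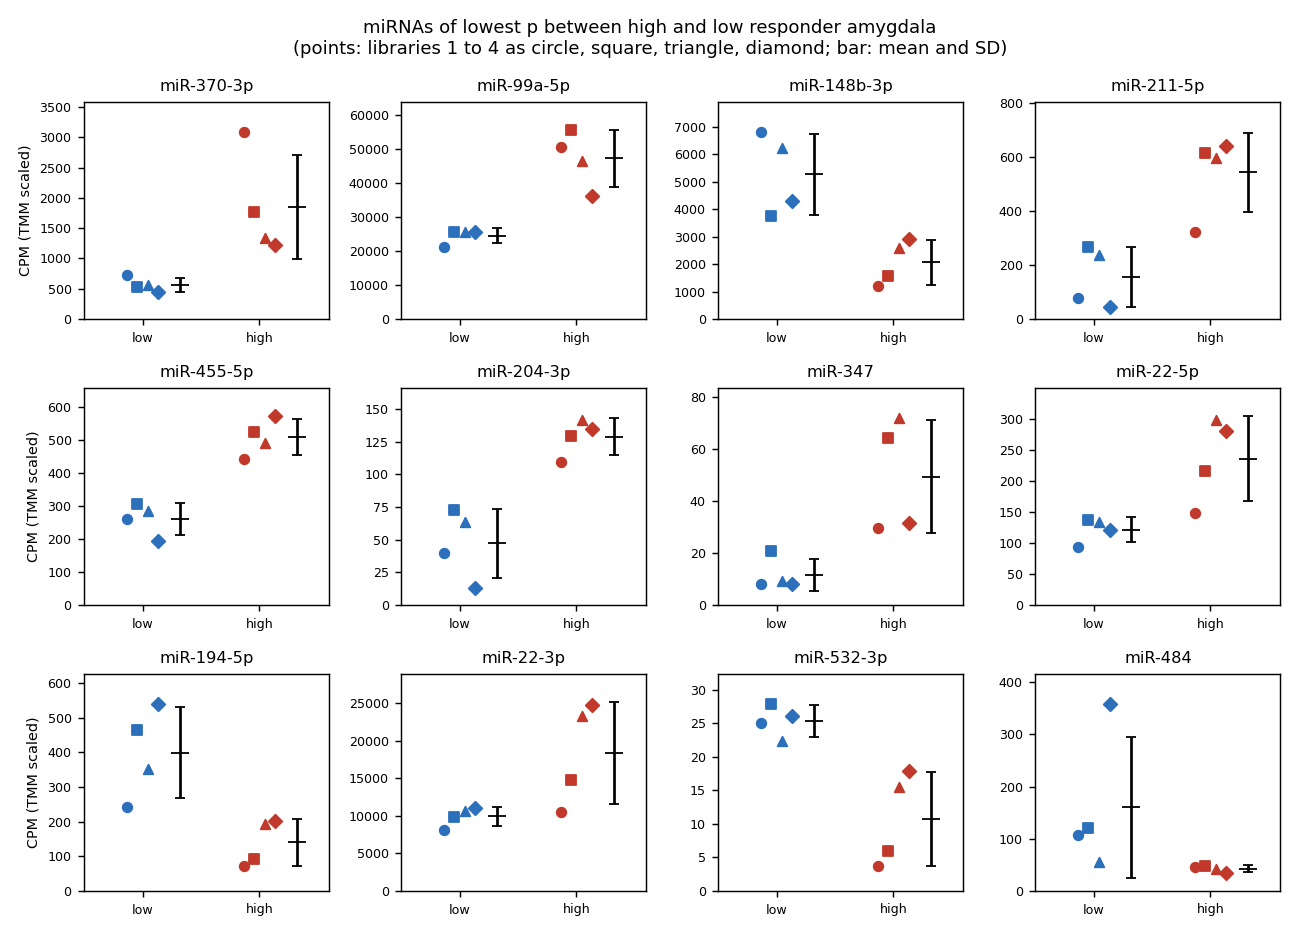
TMM-scaled CPM of the 12 miRNAs of lowest p in low (blue) and high (red) responder amygdala; points are libraries 1 to 4 (circle, square, triangle, diamond) and bars show mean and SD, n = 4. The lines do not overlap in 11 panels; in that of miR-22-3p high responder replicate 1 lies among the low responder libraries.

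Among the other miRNAs lower in high responders, miR-194-5p, a liver and gut miRNA within Iars2, was at 242, 464, 352 and 541 CPM in low and 72.4, 92.8, 194 and 203 CPM in high responders. Replicates 1 and 2 were the lowest high responder libraries, without overlap (log2 fold change -1.50, SE 0.47, edgeR adjusted p = 0.288). miR-532-3p and miR-188-5p come from the same X-linked cluster within the chloride channel gene Clcn5 and had opposite signs. miR-532-3p was at 25.0, 27.9, 22.3 and 26.2 CPM in low and 3.73, 5.91, 15.5 and 17.9 CPM in high responders, without overlap (log2 fold change -1.19, SE 0.38). miR-188-5p was at 11.7, 7.72, 6.29 and 6.08 CPM in low and 74.5, 29.9, 14.5 and 9.41 CPM in high responders, with overlap (log2 fold change 1.99, SE 0.65). Without high responder replicates 1 and 2 the log2 fold changes were -0.59 and 0.62. miR-532-5p, the main product of its hairpin, had a log2 fold change of 0.11 (SE 0.41).

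miR-484 was at 108, 120.4, 54.5 and 358 CPM in low and 46.3, 48.0, 41.7 and 33.9 CPM in high responders (log2 fold change -1.92, SE 0.62, edgeR adjusted p = 0.288). The lines did not overlap, yet low responder replicate 4 held the highest level by far, and without it the log2 fold change was -1.10. miR-6321, within Rufy3, had the largest difference in size at -2.37 (SE 0.79) with overlap, from 28.4, 8.09, 30.4 and 60.8 CPM in low to 12.2, 11.1, 2.15 and 1.18 CPM in high responders. Its lowest level, in high responder replicate 4, rests on few reads, as 3 counts correspond to 0.636 CPM there before scaling. miR-3593-5p was at 582, 453, 476 and 237 CPM in low and 186, 219, 191 and 69.9 CPM in high responders, without overlap (log2 fold change -1.39, SE 0.47).

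miR-150-5p, of the microglia and leukocyte list, and miR-146a-5p, of the activity-induced neuronal list, were also lower in mean in high responders. miR-150-5p, abundant in lymphocytes, was at 714, 659, 838 and 1113 CPM in low and 243, 312, 634 and 637 CPM in high responders (log2 fold change -0.86, SE 0.31, edgeR adjusted p = 0.328). miR-146a-5p, which NF-κB induces and which targets Irak1 and Traf6, was at 208, 245, 283 and 259.9 CPM in low and 119, 152, 183 and 182 CPM in high responders (log2 fold change -0.64, SE 0.25, edgeR adjusted p = 0.41). Neither overlapped, and replicate 1 was lowest in the high line for both. miR-146b-5p, with the seed of miR-146a-5p, pointed the other way and overlapped (log2 fold change 0.43, SE 0.44).

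The remaining miRNAs of the 24 that were higher in mean were of low or moderate level. miR-347 was of low level, with 8.02, 20.9, 9.33 and 8.06 CPM in low and 29.8, 64.3, 71.9 and 31.8 CPM in high responders, and had no overlap (log2 fold change 2.09, SE 0.59, edgeR adjusted p = 0.211). miR-320-5p, from a hairpin that is made without Drosha, was at 14.9, 14.3, 19.1 and 8.98 CPM in low and 36.2, 45.8, 23.8 and 21.2 CPM in high responders, without overlap (log2 fold change 1.14, SE 0.38). miR-125b-1-3p, the minor arm of a lin-4 homologue, had no overlap (log2 fold change 0.92, SE 0.31), nor had miR-378b (1.08, SE 0.38).

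Among the 10 most abundant miRNAs, miR-99a-5p, miR-128-3p and miR-30a-5p had no overlap between the lines, next to 8.76% of all miRNAs. miR-9a-5p, a miRNA of neural progenitors and neurons, took 13.4% of counts in high and 15.6% in low responders on average and overlapped (log2 fold change -0.14, SE 0.25; above 0 with upper quartile scaling and when only miRNAs of at least 10 CPM were tested). miR-128-3p, a neuronal miRNA known to restrain excitability, took 9.54% and 6.25%. Its scaled level was 64218, 45984, 63384 and 68533 CPM in low and 115033, 95064, 89234 and 88067 CPM in high responders, without overlap. With a log2 fold change of 0.68 (SE 0.30) it had an edgeR adjusted p of 0.476. miR-30a-5p was lower in mean (-0.39, SE 0.28), while miR-30d-5p (0.24, SE 0.28), let-7f-5p (0.31, SE 0.34) and miR-7a-5p (0.39, SE 0.38) overlapped. For miR-26a-5p the log2 fold change was -0.18 (SE 0.29) and for miR-127-3p -0.12 (SE 0.38), both with overlap. The sign turned for miR-26a-5p with library quality weights and for miR-127-3p with upper quartile scaling.

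Summed over seeds, 554 families (66 of them with more than 1 member) gave 0 calls in edgeR and 52 (9.39%) at an unadjusted p under 0.05; DESeq2 called 16 (2.89%). With replicate number as a block, 3 passed. The lowest edgeR adjusted p was 0.0904, for the seed CCUGCUG, held by miR-370-3p alone (log2 fold change 1.58). The family of miR-148b-3p and miR-152-3p (seed CAGUGCA) was at 7345, 4708, 6943 and 5006 CPM in low and 1317, 1898, 3030 and 3636 CPM in high responders, without overlap (log2 fold change -1.28, SE 0.32, edgeR adjusted p = 0.191). Adding miR-152-3p thus left the difference of miR-148b-3p nearly as large. The family of miR-204-5p and miR-211-5p (seed UCCCUUU), for which a split of reads between the pair does not matter, had a log2 fold change of 1.44 (SE 0.49, edgeR adjusted p = 0.309) and overlapped. miR-99a-5p, miR-347 and miR-455-5p, which had no matched sequence and were each counted alone, followed with log2 fold changes of 0.83, 1.98 and 0.86.

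The 2 products of a hairpin are counted in the same library, so their ratio does not depend on how libraries are scaled. The log2 ratio of 5p to 3p counts was tested with limma for 187 precursors with a mean of at least 10 counts for each arm. Among them 6 (3.21%) differed between the lines at an adjusted p under 0.05, against 0% in dorsal raphe, and 21 (11.2%) had no overlap between the amygdala groups. The 6 were miR-370, miR-148b, miR-190a, miR-374, miR-299a and miR-493; the last was added after its value was seen, as the rule took the 5 of lowest p. With replicate number as a block in the amygdala libraries 3 passed (1.6%), miR-370 and miR-190a among them. Without the dorsal raphe libraries in the fit 1 passed, miR-190a (limma adjusted p = 0.00709), with miR-370 and miR-148b at 0.0629. Without high responder replicates 1 and 2, miR-370 alone passed, with miR-190a at a difference of -1.95 (limma adjusted p = 0.0794).

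For miR-370 the log2 ratio was -4.37, -3.82, -3.88 and -3.89 in low and -7.62, -6.28, -5.74 and -5.45 in high responder replicates 1 to 4. All high responder libraries lay below all low responder libraries, and replicate 1 was lowest in each line. The difference was -2.28 (SE 0.37, limma adjusted p = 0.00323; 0.0171 with the replicate block; -1.61 and 0.00603 without high responder replicates 1 and 2). The 5p arm rested on 153, 207, 177 and 227 counts in low and 29, 61, 152 and 118 counts in high responders. Scaled, miR-370-5p was at 35.1, 38.0, 38.4 and 30.0 CPM in low and 15.4, 22.5, 25.1 and 27.8 CPM in high responders, so both arms were without overlap, in opposite directions (log2 fold change -0.63, SE 0.30, for the 5p arm). In dorsal raphe the ratios were -4.71, -4.24, -4.47 and -4.78 in low and -4.17, -4.01, -4.32 and -4.12 in high responders. All 8 lie above every high responder amygdala library, and the line difference there was 0.40 (SE 0.37, limma adjusted p = 0.913).

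miR-148b showed the reverse shift, toward the minor 5p arm. Its log2 ratio was -7.13, -5.88, -6.59 and -6.14 in low and -3.61, -4.05, -4.85 and -5.01 in high responder amygdala, without overlap. Replicate 1 was the lowest library of the low line and the highest of the high line. The difference was 2.06 (SE 0.35, limma adjusted p = 0.00323; 0.051 with the replicate block; 1.51 and 0.0794 without high responder replicates 1 and 2). Counts of the 5p arm were 213, 345, 298 and 458 in low and 183, 256, 542 and 385 in high responders. Dorsal raphe ratios were -5.01, -5.75, -5.82 and -5.71 in low and -5.95, -5.64, -5.43 and -5.62 in high responders. Their means lie between those of the amygdala groups (difference -0.09, SE 0.35).

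miR-190a, from an intron of Tln2, had log2 ratios of 5.25, 5.74, 5.41 and 5.56 in low and 3.46, 3.84, 3.60 and 3.49 in high responders. Both groups were tight and did not overlap (difference -1.90, SE 0.37, limma adjusted p = 0.0075; 0.0171 with the replicate block; -1.95 and 0.0794 without high responder replicates 1 and 2). The 3p arm is rare, at 6, 9, 13 and 29 counts in low and 2, 5, 27 and 30 counts in high responders, so each ratio rests on few reads. Its main arm, miR-190a-5p, was lower in mean, at 56.6, 93.3, 125 and 184 CPM in low and 14.4, 28.8, 55.0 and 80.2 CPM in high responders (log2 fold change -1.35, SE 0.48), with overlap. Dorsal raphe ratios ran from 2.60 (replicate 4) to 4.86 in low and from 4.19 to 4.76 in high responders (difference 0.62, SE 0.37).

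miR-374, of the X inactivation centre gene Ftx, had log2 ratios of 2.12, 2.51, 2.02 and 2.25 in low and 0.89, 0.48, 1.36 and 1.22 in high responders, without overlap (difference -1.24, SE 0.25, limma adjusted p = 0.0075; 0.104 with the replicate block). The log2 fold change was -1.24 (SE 0.51) for miR-374-5p and -0.15 (SE 0.47) for miR-374-3p, and miR-374-5p counts were lowest in high responder replicates 1 and 2 (104 and 280). miR-299a and miR-493, like miR-370 of the Dlk1-Dio3 cluster, also moved toward the 3p arm. The differences were -0.96 (SE 0.24) and -1.05 (SE 0.26), with limma adjusted p = 0.0395 for both. With the replicate block it was 0.106 for miR-299a and 0.104 for miR-493. Their ratios were -2.41, -1.54, -1.85 and -1.97 in low and -3.08, -3.11, -2.84 and -2.60 in high responders for miR-299a, without overlap. For miR-493 they were 1.10, 1.12, 1.04 and 1.14 in low and -0.58, -0.11, 0.32 and 0.57 in high responders, again without overlap and with a wider spread in the high line. Neither held when single libraries were left out: the adjusted p reached 0.131 for miR-299a without low responder replicate 2 and 0.119 for miR-493 without low responder replicate 3. Of the 187 precursors, 37 belong to the Dlk1-Dio3 list, and 3 of the 6 called do. In 95 of the 187 precursors the arms had log2 fold changes of opposite sign.

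The difference in arm ratio was set against that in dorsal raphe by an interaction term of line and region in the same limma fit. It passed for 3 of 187 precursors (1.6%): miR-370 (-2.68, SE 0.53, adjusted p = 0.0222), miR-190a (-2.52, SE 0.52, adjusted p = 0.0222) and miR-148b (2.14, SE 0.50, adjusted p = 0.0408). For miR-374 and miR-299a the limma adjusted p was 0.121 and 0.118, and for miR-493, which was lower in high responders in dorsal raphe as well (-0.68, SE 0.26), it was 0.558. In high responder amygdala the miR-370 ratio was lowest, and the miR-148b ratio highest, in replicates 1 and 2. These are also the libraries of lowest total and of lowest first component. Their part in the amygdala line difference was tested only by leaving them out. No interaction of arm ratios without them, or without low responder dorsal raphe replicate 4, is given here.

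**Figure D4:**
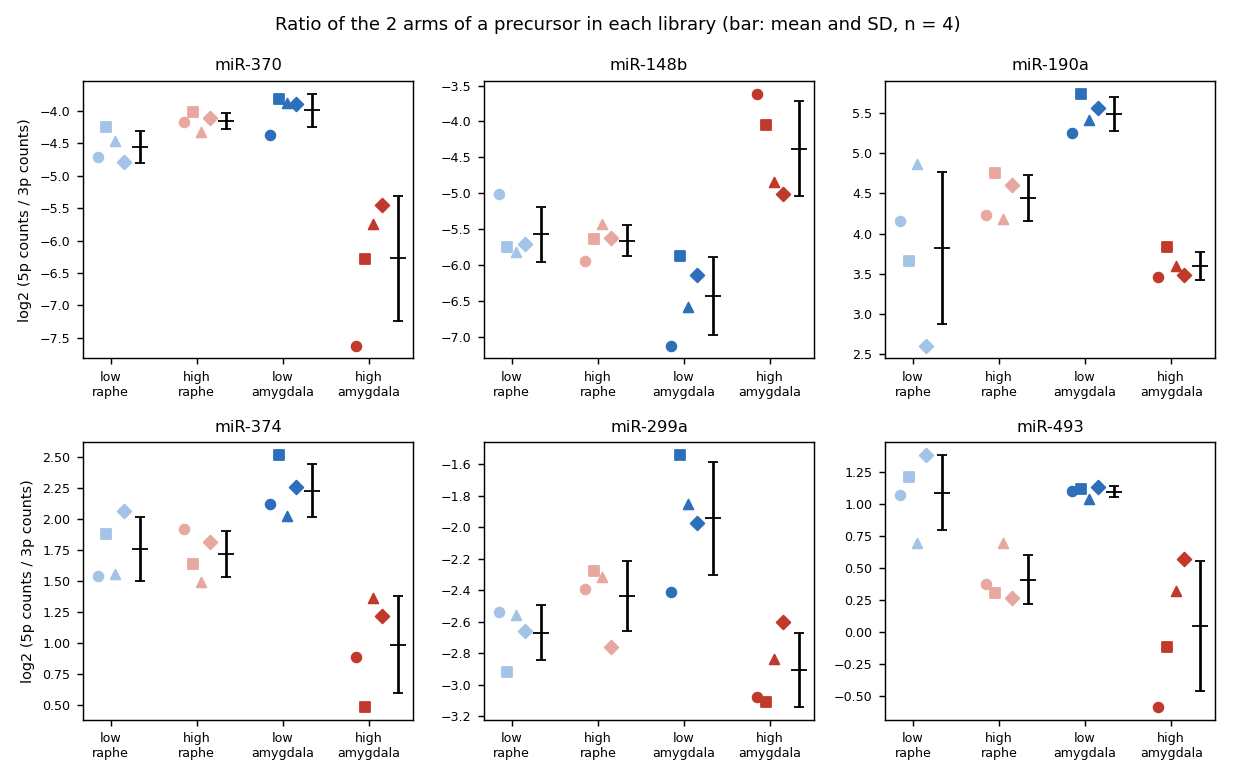
Log2 ratio of 5p to 3p counts in every library for the 6 precursors called, by line and region; points are libraries 1 to 4 (circle, square, triangle, diamond) and bars mean and SD, n = 4. High responder amygdala lies below low responder amygdala in 5 panels and above it for miR-148b, with no overlap in any panel.

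At the level of single miRNAs, 0 of 639 passed the interaction of line and region in edgeR (81, 12.7%, at an unadjusted p under 0.05). Its lowest edgeR adjusted p was 0.0514, for miR-370-3p, which was higher in high responders in amygdala and had a log2 fold change of -0.99 (SE 0.37) in dorsal raphe. DESeq2 called 22. For miR-99a-5p the dorsal raphe value was -0.05 (SE 0.22), for miR-148b-3p 0.02 (SE 0.32), for miR-455-5p -0.12 (SE 0.25) and for miR-22-3p -0.50 (SE 0.28). miR-484 (-1.39, SE 0.61) and miR-6321 (-2.44, SE 0.76) had the same sign in both regions. Of the 24 miRNAs, 19 had the opposite sign in dorsal raphe, against 53.1% of all 639.

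Lists of miRNAs were described by their counts and median, beside the median of 0.07 and the 54.8% of all 639 with a log2 fold change above 0. Leaving out single libraries turned the sign of the median in 16 of the 30 lists; in all but miR-22 the median turned sign or moved by over 1.5 times. No list member passed edgeR's adjusted threshold. The neuron-enriched list, whose sum of 281421 to 335758 CPM in low and 323205 to 351410.3 CPM in high responders marks the tissue as neural, had 12 of 26 members above 0 and a median of -0.06. Of its members, 3 were higher and 1 lower without overlap, next to 5.01% and 3.76% of all miRNAs. miR-128-3p, described above, was among the higher (0.68; 0.56 without high responder replicates 1 and 2). Lower in mean were miR-124-3p (-0.65, SE 0.42), miR-124-5p (-0.96, SE 0.39), miR-153-3p (-1.23, SE 0.56) and miR-7a-1-3p (-0.96, SE 0.43), of which miR-124-5p alone had no overlap. Their lowest levels were in high responder replicates 1 and 2, without which the values were -0.05, -0.37, -0.55 and -0.37. No miRNA in the lists defines amygdala among forebrain regions, so the dissection could not be checked. miRNAs of the Hox clusters, expressed in hindbrain and spinal cord, summed to only 36.2 to 144 CPM in low and 56.9 to 195 CPM in high responders (4 of 6 above 0, median 0.50, 0.28 to 0.84 with single libraries left out).

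The activity-induced neuronal list (miR-132, miR-212, miR-134, miR-146a, miR-188 and miR-184) had 6 of 11 members above 0 and a median of 0.19. Of its 4 members of lowest p, miR-188-5p (1.99, SE 0.65) and miR-184 (1.37, SE 0.66) were above 0. Below 0 were miR-146a-5p (-0.64, SE 0.25) and miR-212-3p (-0.71, SE 0.33), which is co-transcribed with miR-132 downstream of CREB. In the list of miRNAs from stress, anxiety or serotonin reports, 10 of 25 were above 0 (median -0.08). The miR-101 products had 2 of 4 above 0 (median -0.12). Of these, miR-101b-3p was at 4767, 5259.7, 5285 and 6864 CPM in low and 4017, 3772, 3836 and 3591 CPM in high responders, without overlap (log2 fold change -0.54, SE 0.36, edgeR adjusted p = 0.674), and miR-101a-3p overlapped (-0.31, SE 0.37). Reads of miR-101a-3p and miR-101b-3p may have been split between them.

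Glial and vascular lists gave small medians or overlapping sums. The oligodendrocyte list had 5 of 5 members above 0 (median 0.51, 0.16 to 0.97 when single libraries were left out), with sums of 6607, 4961, 5117 and 13596 CPM in low and 7704, 7113, 11554 and 10658 CPM in high responders. The sum was highest in low responder replicate 4, and none of its members passed in edgeR or DESeq2; with library quality weights miR-338-5p and miR-219-5p did. The astrocyte-reported list had 10 of 13 above 0 (median 0.19). Of the microglia and leukocyte list 3 of 8 were above 0 (median -0.27), and its sum was 1201, 1247, 1477 and 1829 CPM in low and 450.4, 649.8, 1305 and 1322 CPM in high responders. High responder replicates 1 and 2 were the lowest there, and the part of immune cells in the miR-150-5p difference was not tested. The vascular list had 3 of 7 above 0 (median -0.12). Its miR-126a-3p of endothelium was at 0.27 (SE 0.32), and the other arm, miR-126a-5p, at -0.35 (SE 0.38). For miR-145-5p of the same list the value was -0.71 (SE 0.38). Of the smooth muscle hairpin miR-143, the minor arm miR-143-5p was at -0.72 (SE 0.36) and the main arm miR-143-3p at 0.30 (SE 0.42). Erythrocyte miRNAs were above 0 in 4 of 4 (median 0.51, 0.25 to 0.74 with single libraries left out), but miR-451-5p, the red cell miRNA, ranged from 23.4 to 176 CPM within the high line and overlapped. The muscle list had 4 of 10 above 0 (median -0.07), the epithelial list 10 of 12 (median 0.39, 0.06 to 0.65 with single libraries left out and lowest without high responder replicate 1; sums of 122 to 165 and 140.5 to 174 CPM) and the sensory cluster 3 of 5 (median 0.20). The miRNAs of the serotonin 2C receptor gene had 5 of 7 above 0 (median 0.33, 0.13 to 0.87 with single libraries left out; lowest without low responder replicate 4, highest without replicate 2).

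The Dlk1-Dio3 cluster, the source of miR-370, had 37 of 85 members above 0 and a median of -0.13. Its sum was 75931 to 86051 CPM in low and 66889.9 to 87701 CPM in high responders. Of its 85 members tested, 6 were higher and 5 lower without overlap, next to 5.01% and 3.76% of all miRNAs. Named members were miR-493-3p (0.86, SE 0.34) and miR-410-5p (1.00, SE 0.39) among the higher and miR-539-3p (-1.55, SE 0.61) among the lower. Without high responder replicates 1 and 2 these 3 values were nearer to 0, at 0.40, 0.51 and -0.76.

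Seed families and clusters by name were as follows. Above 0 were 2 of 2 miR-22 products (median 0.92) and 5 of 6 of miR-99 and miR-100 (median 0.65). The latter median ran from 0.28 to 0.84 with single libraries left out, lowest without high responder replicate 1. Also above 0 were 2 of 4 of miR-148 and miR-152 (median 0.27) and 3 of 5 of miR-125 (median 0.00). Such a median counts main and minor arms alike. The sum of miR-148 and miR-152 was 4480 to 7281 CPM in low and 1571 to 3444 CPM in high responders, lower without overlap. That of miR-99 and miR-100 was 35372 to 40250 CPM in low and 50019 to 92984 CPM in high responders, higher without overlap. The sums of miR-22 and of miR-125 overlapped. let-7, the family that rises as neurons mature, had 10 of 18 above 0 (median 0.03); its let-7b-3p was at 47.9, 23.2, 47.3 and 54.9 CPM in low and 136, 93.5, 68.9 and 62.8 CPM in high responders, without overlap (1.06, SE 0.43, edgeR adjusted p = 0.41). Medians were 0.01 for miR-455 and miR-140 (2 of 4 above 0), -0.04 for miR-192, miR-194 and miR-215 (2 of 5), 0.07 for miR-30 (6 of 11), 0.05 for miR-181 (6 of 10) and 0.03 for the rodent miR-344 family (5 of 8). Lower medians were found for miR-29 (-0.32, 1 of 7 above 0; -0.64 to -0.09 with single libraries left out), a family of mature neurons and glia, and for miR-26 (-0.18, 0 of 3). They were also found for miR-15, miR-16 and miR-195 (-0.23, 2 of 10) and for miR-17-92 with its paralogues (-0.05, 9 of 22). No list but that of miR-22 had all its tested members past an unadjusted p of 0.05.

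**Figure D5:**
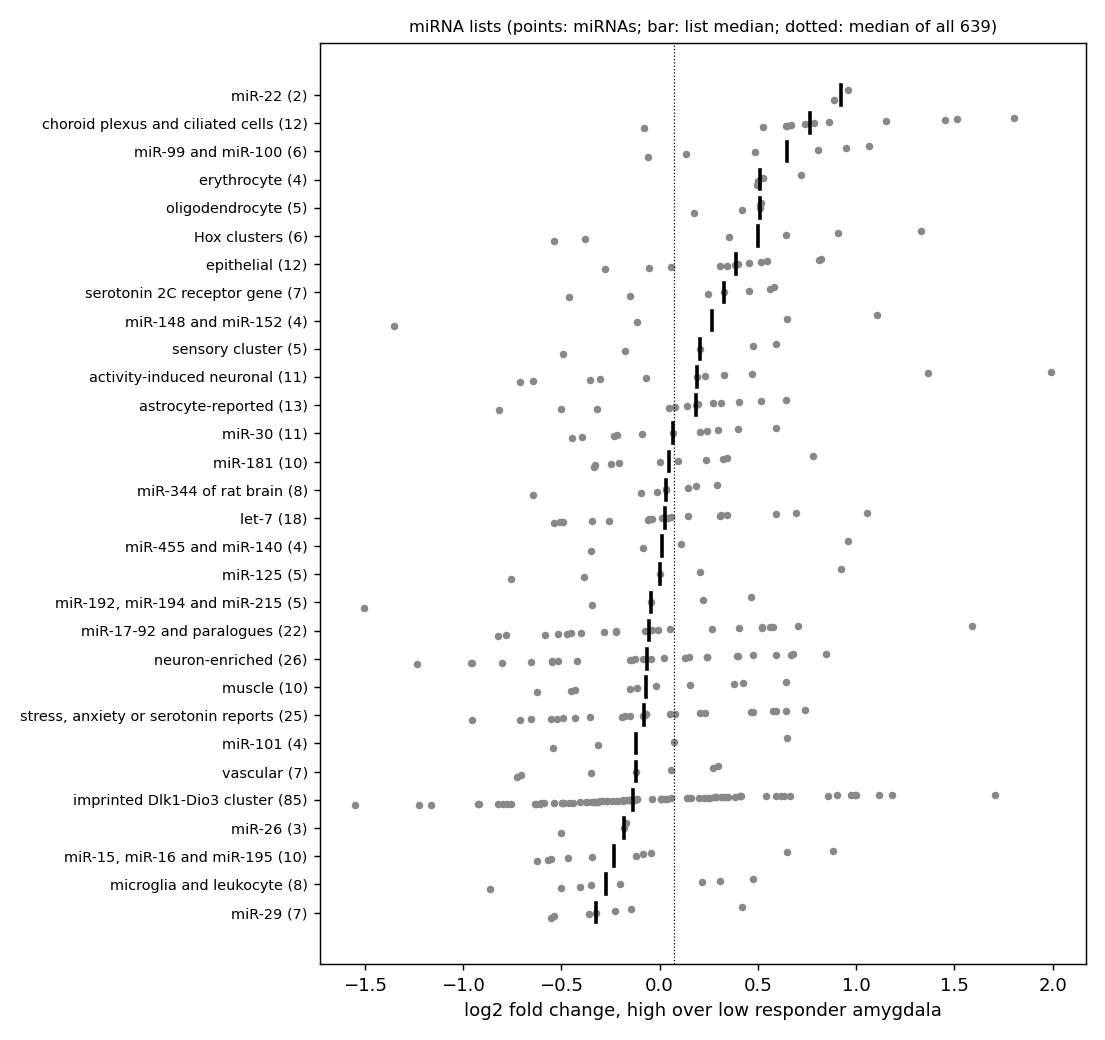
Log2 fold change of high over low responder amygdala for the members of each list (points; number of members tested in brackets), with the list median as a bar and the median of all 639 miRNAs (0.07) dotted. The miR-22, choroid plexus and miR-99/100 lists have the highest medians, and miR-29 the lowest; all but that of miR-22 moved by over 1.5 times when single libraries were left out.

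Weighted by counts, the mean GC content of the miRNA sequences was 43.4% in high and 43.0% in low responders (exact two-sided permutation test, p = 0.0857), with overlap between the lines, and highest in high responder replicate 1 (44.1%). Over the 569 tested miRNAs with a sequence, log2 fold change and GC content had a Spearman rho of 0.085, a description across miRNAs from the same libraries. By length, miRNAs of 21, 22 and 23 bases had medians of -0.05, 0.08 and 0.03. By level, the 232 miRNAs under 10 CPM had a median log2 fold change of 0.28, above those of 10 to 100 CPM (0.03), 100 to 1000 CPM (-0.12) and over 1000 CPM (-0.07).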

How the data were processed

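Mature miRNAs were measured by small RNA sequencing in 16 rat libraries, 4 for each line and region. Per the labels' protocols, RNA was extracted with a miRNeasy kit and libraries were made by an Illumina protocol with Pippin size selection. Tools named in the submitters' processing notes are cutadapt 1.3.1, Bowtie2 and bedtools 2.14.2. Neither the genome build nor the handling of reads that fit several miRNAs is given in the sources used here. Coordinates are therefore left out. The deposited values are whole-number read counts per mature miRNA, not normalized by the authors, in 1 file per library.

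The counts were used as deposited. filterByExpr (minimum count 10, minimum total 15) kept 639 of 722 miRNAs. Levels are CPM on library sizes corrected by edgeR's TMM factors (trimmed mean of M values); log2 CPM uses a prior count of 2. Tests used edgeR 4.0.16 in R 4.3.3 (quasi-likelihood, robust, 1 mean for each of 4 groups, all 16 libraries), with Benjamini-Hochberg adjustment over all miRNAs tested and a threshold of 0.05. DESeq2 1.42.0, limma 3.58.1 (voom, with and without library quality weights), other scalings, filters, a replicate block and leaving out libraries were alternatives. Arm ratios, log2 of (5p counts + 0.5) over (3p counts + 0.5), were tested with limma over the same groups. Seed families are summed counts. Scripts were tested on simulated data. No 2 amygdala libraries were copies (lowest chi-square per degree of freedom 69.7 over 28 pairs).

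Named are the 24 miRNAs of lowest p with a mean of at least 10 CPM (no adjusted call was made), the 10 most abundant, members from among the 4 of lowest p in each of 30 lists, the miR-101 miRNAs, the other arms and seed mates of the 24, and the 5 seed families and arm ratios of lowest p. Libraries were grouped by their labels, but which comparison to describe, the lists and the rules were chosen with earlier results of these data known. Deviations from the group mean correlated between same-numbered high and low responder libraries (0.69, 0.29, 0.21 and 0.51 for replicates 1 to 4, each over 0.1). A replicate block was therefore run as an alternative, although the meaning of the numbers is not stated in the labels. The main fits do not pair libraries. Sequences are RefSeq's, in build GRCr8, with 1 for 644 of the 722 names; host genes are those whose span holds the miRNA on either strand. Intervals of depth cover counting error only.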

Additional observations from a re-analysis of the deposited data

Results flagged for a closer look

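In groups of 4 libraries, 1 library stood apart from the others by Dixon's criterion (the gap to the nearest library, as a share of the group's whole range) in 12 of the 140 group values examined, all on the log2 scale; chance gives about 1 in 20. In high responders this was replicate 1 for miR-127-3p (15.4 against 14.5 to 14.6 log2 CPM, gap 0.832 of the range), miR-146b-5p (12.2 against 11.6 to 11.7, gap 0.890) and miR-211-5p (8.35 against 9.22 to 9.32, gap 0.895). It was replicate 4 for miR-3593-5p (6.14 against 7.54 to 7.78, gap 0.855) and miR-7a-5p (15.2 against 15.5, gap 0.922). In low responders replicate 1 stood apart for miR-299a-5p (3.30 against 4.12 to 4.28, gap 0.831), miR-374-5p (8.30 against 9.19 to 9.33, gap 0.862), miR-99a-5p (14.4 against 14.6 to 14.7, gap 0.947) and the miR-370 arm ratio (-4.37 against -3.89 to -3.82, gap 0.865). Replicate 2 did so for miR-347 (4.42 against 3.08 to 3.29, gap 0.845), and replicate 4 for miR-338-5p (10.7 against 9.45 to 9.52, gap 0.946) and miR-7a-5p (14.2 against 15.1 to 15.3, gap 0.883). The high responder group of miR-211-5p lies above the low responder group also with its low replicate 1.

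The line difference in arm ratio differed between amygdala and dorsal raphe, by the interaction term in limma, for miR-370 (-2.68), miR-190a (-2.52) and miR-148b (2.14); the interaction of arm ratios was added after the data were seen. What sets these apart was not tested.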

How the results depend on the processing

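The count of miRNAs called, 0 in edgeR, was also 0 with relative log expression factors, no count filter, limma-voom, the amygdala libraries alone, no robust moderation and a replicate block (within amygdala or within regions). It stayed 0 with every single amygdala library left out (lowest and highest 0) and with high responder replicates 1 and 2 left out. Single libraries left out were always amygdala libraries, and no dorsal raphe library was left out by itself. It was 2 with library totals, 8 for miRNAs of at least 10 CPM, 9 without the libraries of lowest total (low responder dorsal raphe 4 and high responder amygdala 1), 10 with upper quartile factors, 13 with quality weights and 19 with DESeq2. At an unadjusted p under 0.05 the count of 65 became 109 with quality weights, 130 with the replicate block, 102 without the libraries of lowest total, 98 without high responder replicates 1 and 2 (added after seeing the data), and 46 to 102 with single libraries left out, 102 without high responder replicate 4. Pairing by number is uncertain: low responder replicate 1 correlated with high responder replicate 2 at 0.62, and low responder replicate 3 with high responder replicate 4 at 0.22, so not every library was closest to its own number. The interaction count of 0 was 22 in DESeq2, 1 with a replicate block within region, 3 without the libraries of lowest total and 0 to 1 with single libraries left out (1 without high responder replicate 4). Seed families gave 2 calls with library totals, 16 in DESeq2, 3 with the replicate block, 5 without the libraries of lowest total and 0 to 1 with single libraries left out (1 without high responder replicate 4). The 6 arm ratio calls became 3 with the replicate block, 1 in the amygdala libraries alone, 1 without high responder replicates 1 and 2 (both added after seeing the data) and 4 to 11 with single libraries left out, 11 without high responder replicate 4. miR-190a, with few 3p counts, could not be tested at a minimum mean of 50 counts. Against TMM, the median over all miRNAs moved by 0.26 with upper quartile factors, -0.15 with voom and -0.16 with quality weights.

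Of 63 named miRNAs, 57 kept their direction in every alternative run; over 1385 values 60 newly passed and 20 turned sign. Those were miR-127-3p (0.24 upper quartile, 0.064 at 10 CPM or more, -0.38 to 0.015 with single libraries left out), miR-9a-5p (0.10 and 0.0012 in the first 2 of these), miR-26a-5p (0.013 with quality weights, 0.20 without high responder replicates 1 and 2) and miR-152-3p (0.029 upper quartile, 0.024 without the lowest totals, 0.15 without high responder replicates 1 and 2, and -0.33 to 0.15 with single libraries left out). They also include miR-374-3p (0.13 without the lowest totals, -0.55 to 0.14 with single libraries left out, 0.44 without replicates 1 and 2) and miR-455-3p (0.22, -0.59 to 0.23 and 0.62 in the same 3). The cause was not tested. With 4 libraries a line and totals down to 1741167, levels under 1.72 CPM rest on fewer than 3 counts in the shallowest library.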
